A study of Mus musculus with 12 samples.

Results

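Of the 55891 gene identifiers in the deposited table, 10 studied here encode proteins that store, move or sense iron. They were taken by gene symbol, all 10 were found, and each was measured in all 12 libraries. Fth1 and Ftl1 encode the heavy and light chains of ferritin. Slc40a1 encodes ferroportin, the iron exporter. Tfrc encodes transferrin receptor 1, which takes up transferrin-bound iron. Slc11a1 (NRAMP1) and Slc11a2 (DMT1) encode divalent metal transporters of the phagosome and the endosome. Aco1 and Ireb2 encode the iron regulatory proteins IRP1 and IRP2, and Fbxl5 encodes the iron-sensing subunit of a ubiquitin ligase that marks them for degradation. Lcn2 encodes lipocalin 2, or siderocalin, which binds bacterial siderophores.

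Macrophages recycle iron from aged red cells, store it in ferritin and return it to plasma through ferroportin. When iron is scarce, IRP1 and IRP2 bind hairpins called iron-responsive elements. Binding in a 5′ untranslated region blocks translation, as for ferritin, and binding in the 3′ untranslated region of Tfrc protects the transcript from decay. During infection, macrophages are known to hold iron back from microbes.

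The study grew macrophages from bone marrow of Ptprz1 knockout mice (KO) and wild-type mice (WT), in the setting of kidney injury, and sequenced their RNA. Ptprz1 encodes a receptor-type tyrosine phosphatase. All groups had 6 days in M-CSF at 10 ng/mL, the growth factor that drives macrophage differentiation. The 6 groups, of 2 libraries each, were KO and WT cells given 100 ng/mL LPS and 10 ng/mL IFNγ for 24 h (LPS+IFNγ, called M1 in the labels), KO and WT cells given 20 ng/mL IL-4 for 24 h (called M2), and KO and WT cells left as control. The knockout allele is given as B6.129-Ptprz1tm1Nmo in the strain label, which all samples carry, WT included. The titles and the genotype label separate KO from WT, and the titles call the WT libraries B6. The labels thus do not settle whether KO and WT cells shared a genetic background, and a difference in it could not be told apart from genotype. Neither the number of mice nor the source of each library is given, so the 2 libraries of a group may be technical repeats, and p-values speak only of the spread between them.

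Library totals ran from 13665607 to 19555600 counts, and 13525 genes passed the filter on low counts, all 10 iron genes among them. All 10 also passed it with the LPS+IFNγ libraries left out. Ptprz1 had 0 counts in 11 libraries and 7 counts in WT IL-4 library 2, so RNA of the targeted gene could not check the genotype labels. Xist had 0 counts in all 6 KO libraries and 3422 to 12711 counts in WT libraries, and the Y-linked Ddx3y had 1118 to 2335 counts in KO libraries and 0 in WT libraries, so genotype and the sex of the donor mice cannot be told apart. The 10 macrophage markers checked, among them Adgre1, Csf1r and Cd68, were detected in all libraries. In such bulk libraries, fewer cells of a type and less RNA per cell cannot be told apart.

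The iron-responsive elements are shown first, because they are the sequence feature that joins ferritin, ferroportin and the transferrin receptor to IRP1 and IRP2. Coding transcripts of GENCODE release M21 (GRCm38) were searched on the sense strand for the loop CAGTGN between 2 arms of 5 paired bases, with an unpaired C before the inner arm. Matches were found in 4 of the 10 genes, and in 294 of 21901 coding genes searched (1.34%). Capitals mark the loop, and each sequence is DNA sense, 5′ to 3′.
Fth1, 5′ untranslated region: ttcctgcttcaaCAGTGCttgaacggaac
Ftl1, 5′ untranslated region: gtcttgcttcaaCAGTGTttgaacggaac
Slc40a1, 5′ untranslated region: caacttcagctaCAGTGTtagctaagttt
Tfrc, 3′ untranslated region, match 1: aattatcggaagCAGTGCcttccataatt
Tfrc, match 2: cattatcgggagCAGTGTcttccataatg
Tfrc, match 3: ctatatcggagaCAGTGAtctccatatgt
Tfrc, match 4: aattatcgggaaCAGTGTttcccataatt
The match began 132 bases before the coding start in Fth1 (chromosome 19, GRCm38 9980598 to 9985098), 170 bases before it in Ftl1 (chromosome 7, 45457944 to 45459884) and 224 bases before it in Slc40a1 (chromosome 1, 45908068 to 45926523). The 4 matches of Tfrc (chromosome 16, 32608920 to 32632794) lay 892, 1271, 1336 and 1383 bases after its coding end. Slc11a1, Slc11a2, Fbxl5, Ireb2, Aco1 and Lcn2 had no match to these letters in the annotated transcripts. The pattern was strict, so an element with a bulge or an unpaired base in an arm would be missed. A lack of match therefore does not show that a gene lacks such an element, and the count for Tfrc may be incomplete. Elements of this kind act on translation and on transcript stability, and counts of RNA measure neither protein nor decay.

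The levels of these genes differed between stimuli, and none differed between genotypes past the threshold. LPS+IFNγ changed 9 of the 10 in KO cells, 5 higher and 4 lower, and 10 of 10 in WT cells, 6 higher and 4 lower, at a Benjamini-Hochberg adjusted p below 0.05 in edgeR's quasi-likelihood test. Among all genes tested, 53.3% passed in KO cells (27.2% higher, 26.1% lower) and 54.3% in WT cells (27.4% higher, 27.0% lower). IL-4 changed 2 of the 10 in KO cells, with Tfrc higher and Slc11a1 lower, against 6.86% of all genes (3.52% higher, 3.34% lower). It changed 4 of the 10 in WT cells, with Tfrc and Aco1 higher and Slc40a1 and Slc11a1 lower, against 9.04% (4.92% higher, 4.12% lower). KO differed from WT for none of the 10. The median log2 fold change of the 10 genes with LPS+IFNγ was 0.65 in KO cells and 0.90 in WT cells, beside -0.01 and -0.05 over all genes tested. The 10 were chosen with earlier results of these data known, so these counts and medians describe the list only. With any 1 of its 4 libraries left out, the WT comparison with LPS+IFNγ lost the calls of Ftl1, Slc40a1 and Aco1. The WT comparison with IL-4 then kept only the call of Tfrc. The KO count with IL-4 was 1 without KO control library 1 or either KO IL-4 library.

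**Figure D1:**
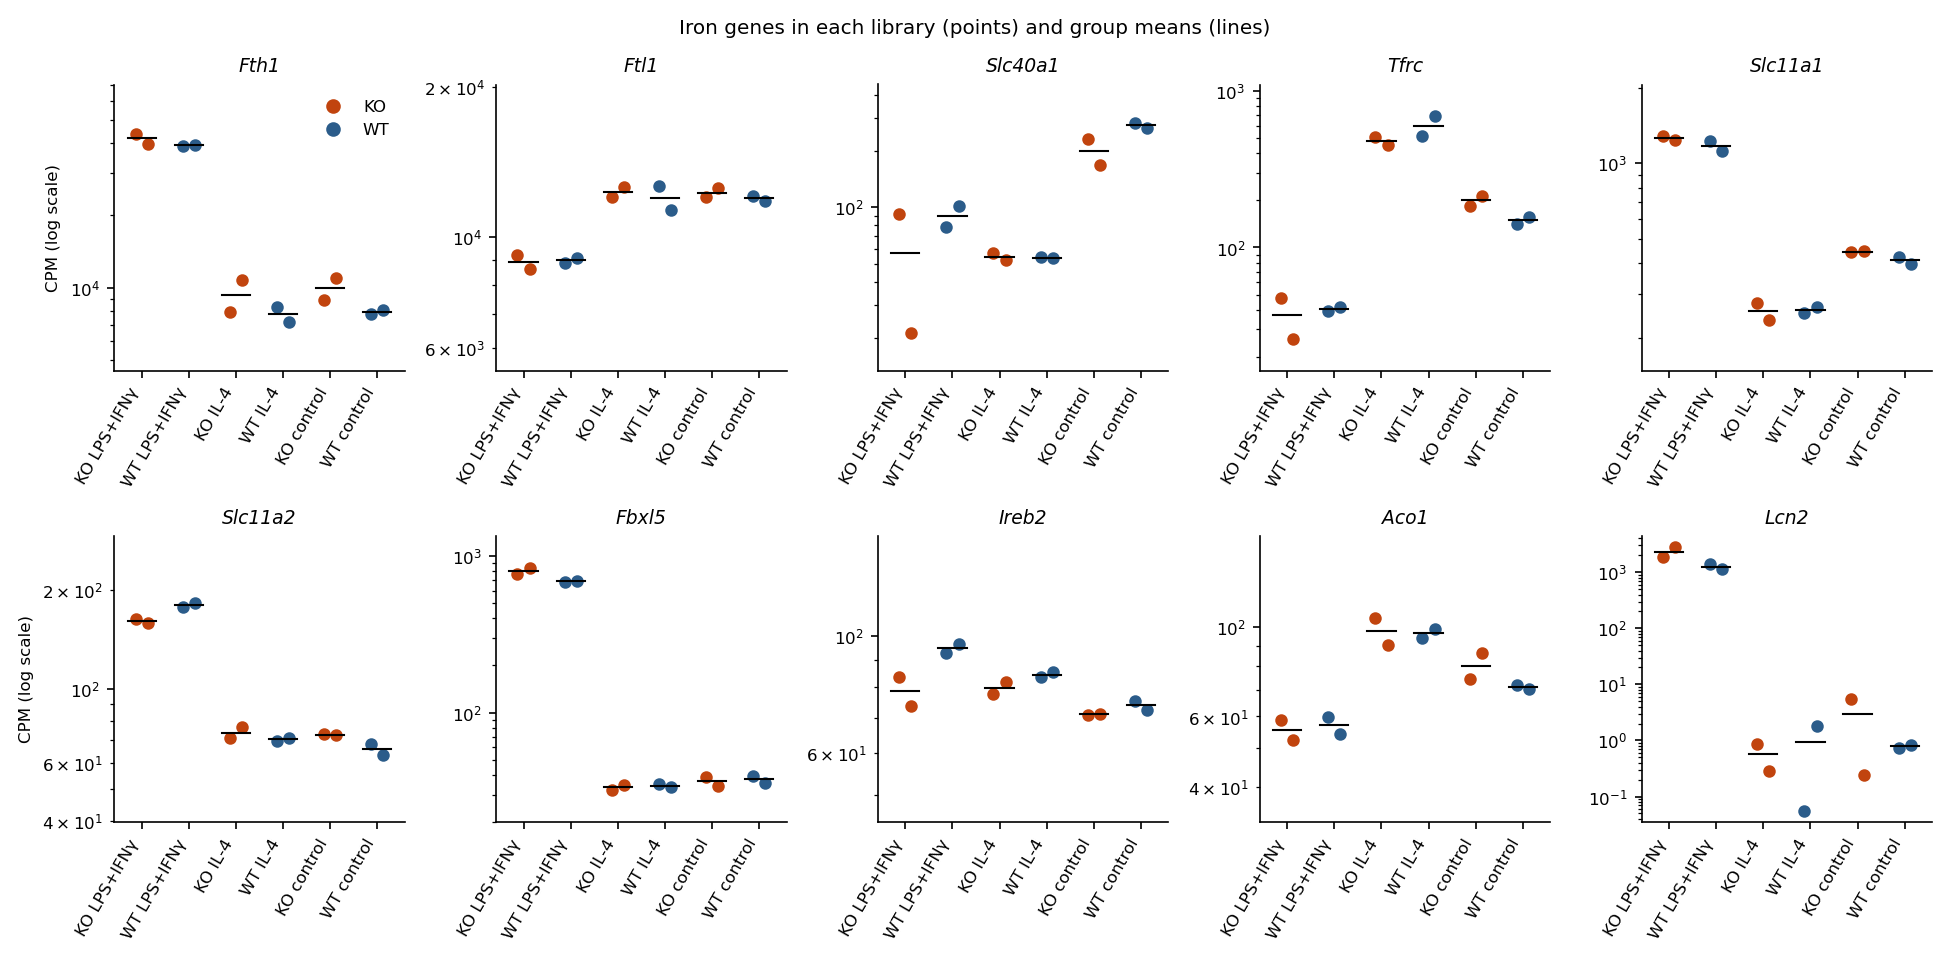
CPM (TMM-scaled, log scale) of each iron gene in each library, in 6 groups of 2. Points are libraries, coloured by genotype, and lines are group means; Fth1, Slc11a1, Slc11a2, Fbxl5 and Lcn2 are highest in the 4 LPS+IFNγ libraries, and Tfrc in the 4 IL-4 libraries.

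The ferritin chains moved in opposite directions with LPS+IFNγ. Values are CPM, counts scaled to library size with TMM factors, in library 1 and library 2. Fth1 stood at 43854 and 39816 CPM in KO LPS+IFNγ libraries, 39003 and 39245 in WT LPS+IFNγ, 7923 and 10766 in KO IL-4, 8283 and 7228 in WT IL-4, 8911 and 10985 in KO control and 7814 and 8084 in WT control. All 4 LPS+IFNγ libraries lay far above the other 8. IL-4 libraries overlapped with control libraries in each genotype, and in control cells both KO libraries lay above both WT libraries. Fth1 rose by 2.07 ± 0.20 on the log2 scale (SE; 4.21-fold, adjusted p = 2.54e-05) in KO cells and by 2.30 ± 0.20 (4.92-fold, adjusted p = 1.34e-05) in WT cells. Its log2 fold change with IL-4 was -0.09 in KO cells (adjusted p = 0.837) and -0.04 in WT cells (adjusted p = 0.947).

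Ftl1 stood at 9193 and 8637 CPM in KO LPS+IFNγ libraries, 8885 and 9082 in WT LPS+IFNγ, 12056 and 12625 in KO IL-4, 12642 and 11321 in WT IL-4, 12015 and 12528 in KO control and 11834 and 12080 in WT control. The 4 LPS+IFNγ libraries were below all the others. Ftl1 fell by 0.46 ± 0.14 on the log2 scale in KO cells (adjusted p = 0.0192) and by 0.41 ± 0.14 in WT cells (adjusted p = 0.0305). The WT call was lost without any 1 of its 4 libraries (adjusted p from 0.105 to 0.136), with the size nearly the same.

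The count of Fth1 per count of Ftl1, a ratio taken within a library, needs no scaling between libraries, and it is read only across libraries because it is not corrected for transcript length. It was 4.77 and 4.61 in KO LPS+IFNγ libraries, 4.39 and 4.32 in WT LPS+IFNγ, 0.657 and 0.853 in KO IL-4, 0.655 and 0.638 in WT IL-4, 0.742 and 0.877 in KO control and 0.647 and 0.683 in WT control. Fth1 had more counts than Ftl1 in all 4 LPS+IFNγ libraries and fewer in the other 8. Fth1 took 3.01% to 3.56% of all counts in LPS+IFNγ libraries, against 0.803% to 1.21% in the others. Ferritin has near-identical processed copies in the genome, whose reads the authors' counting could split. The 3 genes named as Ftl pseudogenes held 0.287% to 0.415% as many counts as Ftl1. Most of these counts were from Ftl1-ps1, which is annotated as protein coding. The 2 named as Fth pseudogenes held at most 0.00138% as many as Fth1. Copies were found by name, so any under other names were not counted.

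**Figure D2:**
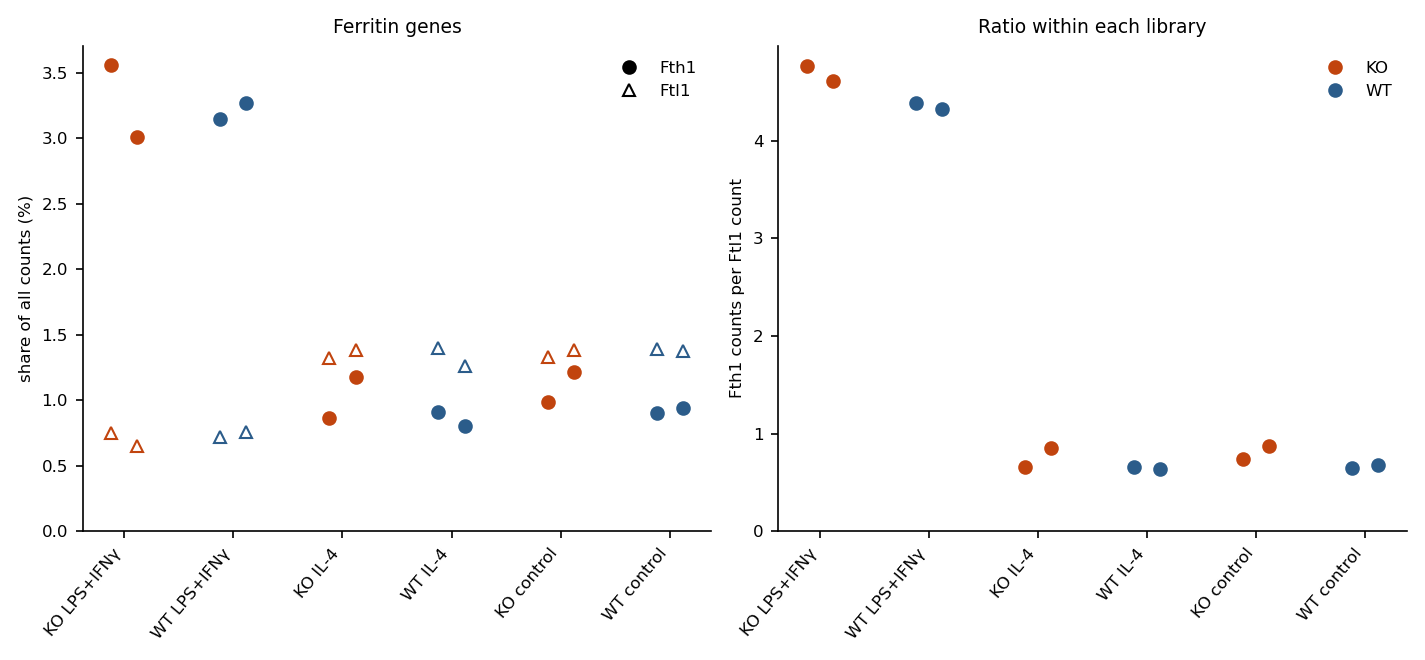
Left, share of all counts (%) taken by Fth1 (filled circles) and Ftl1 (open triangles) in each library; right, counts of Fth1 per count of Ftl1 in each library, coloured by genotype. The ratio is 4.32 to 4.77 in the 4 LPS+IFNγ libraries and 0.638 to 0.877 in the other 8.

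Slc40a1, the exporter, was highest in control cells and lower with both stimuli. It stood at 91.9 and 21.3 CPM in KO LPS+IFNγ libraries, 78.3 and 102 in WT LPS+IFNγ, 56.6 and 52.0 in KO IL-4, 54.2 and 53.5 in WT IL-4, 232 and 169 in KO control and 285 and 266 in WT control. No stimulated library reached the lowest control library, and KO LPS+IFNγ library 2 was the lowest of the 12. Slc40a1 fell by 1.81 ± 0.50 on the log2 scale with LPS+IFNγ in KO cells (3.52-fold, adjusted p = 0.0120) and by 1.61 ± 0.49 in WT cells (3.06-fold, adjusted p = 0.0193). With IL-4 it fell by 2.36 ± 0.50 in WT cells (5.12-fold, adjusted p = 0.0220). In KO cells the log2 fold change with IL-4 was -1.88 ± 0.49, with an adjusted p of 0.0533 that missed the threshold, and it passed with DESeq2 (adjusted p = 0.0120).

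These calls rest on few libraries. In KO cells, the log2 fold change with LPS+IFNγ was -3.24 without KO LPS+IFNγ library 1, -1.13 without KO LPS+IFNγ library 2, and -1.57 with an adjusted p of 0.0536 without KO control library 1. In WT cells, no call of Slc40a1 held without any 1 of the libraries compared: the adjusted p ran from 0.0532 to 0.117 with LPS+IFNγ and from 0.0931 to 0.140 with IL-4, with values from -1.82 to -1.44 and from -2.41 to -2.31.

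Tfrc, the receptor for transferrin, moved in opposite directions with the 2 stimuli. It stood at 47.7 and 26.1 CPM in KO LPS+IFNγ libraries, 39.2 and 41.7 in WT LPS+IFNγ, 507 and 449 in KO IL-4, 514 and 687 in WT IL-4, 185 and 215 in KO control and 142 and 157 in WT control. The 3 treatments did not overlap in either genotype. With LPS+IFNγ it fell by 2.43 ± 0.26 on the log2 scale in KO cells (5.39-fold, adjusted p = 4.37e-05) and by 1.88 ± 0.25 in WT cells (3.69-fold, adjusted p = 1.87e-04). With IL-4 it rose by 1.26 ± 0.24 in KO cells (2.39-fold, adjusted p = 0.0184) and by 2.01 ± 0.25 in WT cells (4.02-fold, adjusted p = 0.00223). The KO call with IL-4 was lost without KO control library 1 (adjusted p = 0.113) or either KO IL-4 library (0.0514 and 0.0516). Dividing cells are known to raise Tfrc, and 12 cell cycle genes summed to 211 to 234 CPM in KO LPS+IFNγ libraries, 220 to 232 in WT LPS+IFNγ, 1465 to 1730 in KO IL-4, 1845 to 1868 in WT IL-4, 2053 to 2377 in KO control and 2404 to 2506 in WT control. Their sum was lower than control with LPS+IFNγ, where Tfrc was lower, and less so with IL-4, where Tfrc was higher. With LPS+IFNγ all 12 were called lower in both genotypes, beside 26.1% of all genes in KO and 27.0% in WT cells. With IL-4, 2 were called lower in KO cells (3.34% of all genes) and 1 in WT cells (4.12%). The part of the cell cycle genes in the Tfrc levels was not tested.

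The 2 metal transporters of the SLC11 family both rose with LPS+IFNγ and differed with IL-4. Slc11a1, which moves metal out of the phagosome, stood at 1291 and 1242 CPM in KO LPS+IFNγ libraries, 1224 and 1123 in WT LPS+IFNγ, 278 and 238 in KO IL-4, 252 and 266 in WT IL-4, 443 and 446 in KO control and 421 and 398 in WT control. The treatments did not overlap, with LPS+IFNγ highest and IL-4 lowest. It rose by 1.51 ± 0.12 on the log2 scale with LPS+IFNγ in KO cells (adjusted p = 6.76e-06) and by 1.52 ± 0.12 in WT cells (adjusted p = 5.99e-06). With IL-4 it fell by 0.78 ± 0.12 in KO cells (adjusted p = 0.00559) and by 0.66 ± 0.12 in WT cells (adjusted p = 0.0101), and the WT call was lost without any 1 of its 4 libraries (adjusted p from 0.0707 to 0.114).

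Slc11a2, which moves ferrous iron out of the endosome, stood at 163 and 159 CPM in KO LPS+IFNγ libraries, 177 and 182 in WT LPS+IFNγ, 71.0 and 76.6 in KO IL-4, 70.0 and 71.0 in WT IL-4, 73.3 and 72.6 in KO control and 68.3 and 63.4 in WT control. Its values in IL-4 and control libraries lay close together and below all LPS+IFNγ libraries. It rose by 1.14 ± 0.09 on the log2 scale with LPS+IFNγ in KO cells (2.20-fold, adjusted p = 6.37e-06) and by 1.44 ± 0.09 in WT cells (2.72-fold, adjusted p = 1.60e-06). With IL-4 it did not pass the test in either genotype (adjusted p = 0.941 in KO cells and 0.539 in WT cells).

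**Figure D3:**
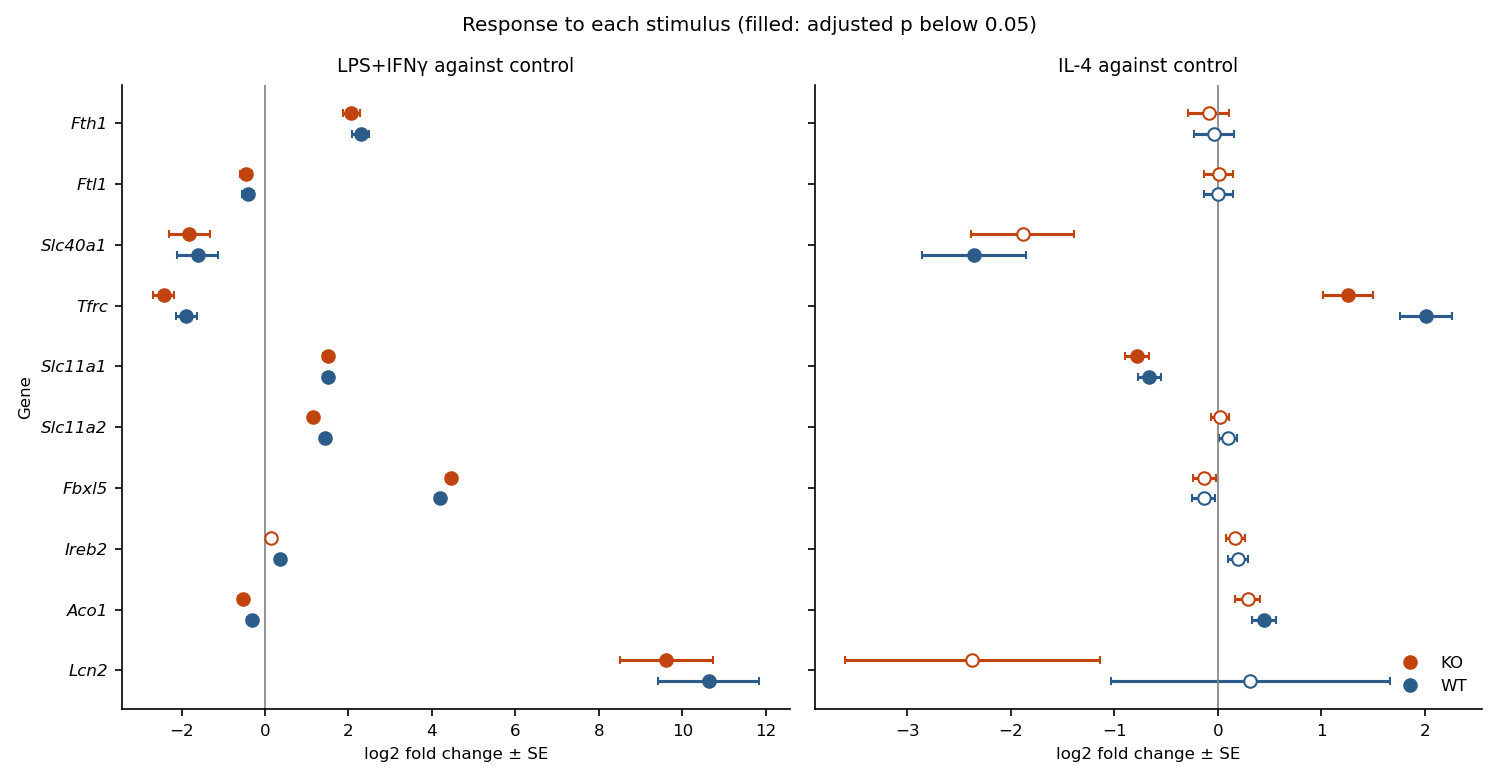
Log2 fold change ± SE of each iron gene for LPS+IFNγ (left) and IL-4 (right) against control, in KO (upper point of each pair) and WT cells; filled points have an adjusted p below 0.05. With LPS+IFNγ 9 KO and 10 WT points are filled, and with IL-4 2 KO and 4 WT points; the x axes differ between panels.

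Of the sensors, Fbxl5 had the lowest adjusted p of the 10 genes with LPS+IFNγ. It stood at 761 and 837 CPM in KO LPS+IFNγ libraries, 685 and 688 in WT LPS+IFNγ, 32.0 and 34.6 in KO IL-4, 34.8 and 33.4 in WT IL-4, 38.8 and 34.0 in KO control and 39.3 and 35.7 in WT control. The other 8 libraries spanned a narrow range far below the LPS+IFNγ libraries. It rose by 4.46 ± 0.13 on the log2 scale in KO cells (21.9-fold, adjusted p = 9.82e-08) and by 4.19 ± 0.12 in WT cells (18.3-fold, adjusted p = 8.40e-08). Its protein targets are IRP1 and IRP2, whose genes had log2 fold changes between -0.53 and 0.36 in the same comparisons.

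The position of Fbxl5 bears on how its count is read. In GRCm38 the gene spans chromosome 5, 43744615 to 43821638, on the minus strand. One of its 12 annotated transcripts starts at 43821638 and the other 11 start at or downstream of 43782150, which is 39488 bases away. The long transcript starts inside Bst1, a gene of the plus strand that begins at 43818885, and the exons of Fbxl5 and Bst1 share 98 bases of the 9740 exonic bases of Fbxl5. Bst1, an ectoenzyme gene, had 8596 and 7336 counts in KO LPS+IFNγ libraries, 7255 and 7133 in WT LPS+IFNγ and 89 to 253 in the other 8. Gm43181, a transcript of unproven type annotated on the strand of Fbxl5 at 43784046 to 43786117, shares no exonic base with it and lies between the start of the long transcript and those of the others. It had 650 and 624 counts in KO LPS+IFNγ libraries, 593 and 670 in WT LPS+IFNγ and 0 in all other 8. The deposited table gives counts per gene, so which Fbxl5 transcripts rose was not tested, nor was the part of reads from Bst1.

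Ireb2 (IRP2) varied little. It stood at 83.7 and 73.9 CPM in KO LPS+IFNγ libraries, 92.8 and 96.8 in WT LPS+IFNγ, 77.7 and 81.9 in KO IL-4, 83.6 and 85.5 in WT IL-4, 71.0 and 71.1 in KO control and 75.4 and 72.3 in WT control. In WT cells it rose by 0.36 ± 0.09 on the log2 scale with LPS+IFNγ (adjusted p = 0.00870), a call lost without WT control library 2 (0.0737) or WT LPS+IFNγ library 2 (0.0634), and in KO cells its log2 fold change was 0.15 ± 0.09 (adjusted p = 0.205). The direction depended on scaling: with library totals in place of TMM factors the value was -0.14 in WT cells (adjusted p = 0.295) and -0.34 in KO cells (adjusted p = 0.0210). That scaling moved the median of all genes with LPS+IFNγ by -0.50 on the log2 scale in both genotypes. Relative to that median, Ireb2 was higher under both scalings, and the other 9 genes kept their direction with LPS+IFNγ.

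Aco1 (IRP1) was lower with LPS+IFNγ and higher with IL-4 in WT cells. It stood at 58.8 and 52.4 CPM in KO LPS+IFNγ libraries, 59.9 and 54.3 in WT LPS+IFNγ, 106 and 90.3 in KO IL-4, 94.1 and 99.4 in WT IL-4, 74.2 and 86.3 in KO control and 71.7 and 70.4 in WT control. The treatments did not overlap within a genotype. With LPS+IFNγ it fell by 0.53 ± 0.12 on the log2 scale in KO cells (adjusted p = 0.00476). In WT cells it fell by 0.31 ± 0.12, with an adjusted p of 0.0499 just inside the threshold, and with IL-4 it rose by 0.44 ± 0.12 (adjusted p = 0.0495). Both WT calls were lost without any 1 of their 4 libraries, with an adjusted p from 0.0795 to 0.241 for LPS+IFNγ and from 0.169 to 0.247 for IL-4. In KO cells the log2 fold change with IL-4 was 0.29 ± 0.12 (adjusted p = 0.177).

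Lcn2, which starves bacteria of siderophore-bound iron, was at 5.57 CPM or less without LPS+IFNγ and abundant with it. It stood at 1862 and 2765 CPM in KO LPS+IFNγ libraries, 1398 and 1118 in WT LPS+IFNγ, 0.874 and 0.284 in KO IL-4, 0.0558 and 1.82 in WT IL-4, 5.57 and 0.244 in KO control and 0.729 and 0.837 in WT control. Counts behind the low values were 16 and 6 in KO IL-4 libraries, 1 and 37 in WT IL-4, 121 and 5 in KO control and 15 and 17 in WT control. The control and IL-4 levels overlapped and were set by few counts. Lcn2 rose by 9.62 ± 1.12 on the log2 scale with LPS+IFNγ in KO cells (adjusted p = 7.80e-05) and by 10.64 ± 1.21 in WT cells (adjusted p = 6.48e-05). The KO value was 13.17 without KO control library 1 and 8.70 without KO control library 2. KO control library 1 also had 201 CPM summed over 10 interferon-stimulated genes, against 26.1 in KO control library 2 and 27.2 in both WT control libraries.

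Granulocytes are a known source of Lcn2. Their 13 markers summed to 196 and 428 CPM in KO LPS+IFNγ libraries, 147 and 137 in WT LPS+IFNγ, 24.7 to 76.3 in IL-4 and 24.3 to 47.2 in control libraries of both genotypes, and KO LPS+IFNγ library 2 had the highest sum and the highest Lcn2. Mmp8 and S100a8 had the highest levels of the list, with maxima of 207 and 220 CPM. S100a9, Ltf and Ngp reached 4.08, 4.48 and 3.50 CPM, and the other 8 stayed below 1 CPM, with Ly6g at 0 in all 12 libraries. Of the 6 granulocyte markers that passed the filter, 2 were called higher and 0 lower with LPS+IFNγ in each genotype. Among all genes, 27.2% were called higher in KO cells and 27.4% in WT cells. The median log2 fold change of the 6 was -0.76 in KO cells and -0.53 in WT cells. In KO LPS+IFNγ library 2, 8 of the 13 markers had no counts. The part of granulocytes in the Lcn2 level was not tested. Erythroid markers, which could bring ferritin and Tfrc RNA with them, summed to less than 1 CPM in every library, with Hbb-bs, Hbb-bt, Alas2, Hemgn and Slc4a1 at 0 in all 12.

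Set directly against IL-4, LPS+IFNγ changed 8 of the 10 in KO cells, 5 higher and 3 lower, where 54.9% of all genes passed (26.7% higher, 28.1% lower), and 8 of the 10 in WT cells, 5 higher and 3 lower, where 56.2% passed (28.1% higher, 28.1% lower). Tfrc fell by 3.69 ± 0.27 on the log2 scale in KO cells (12.9-fold, adjusted p = 4.26e-06) and fell by 3.89 ± 0.27 in WT cells (14.8-fold, adjusted p = 3.19e-06). Slc11a1 rose by 2.30 ± 0.12 in KO cells (4.91-fold, adjusted p = 7.09e-07) and by 2.18 ± 0.12 in WT cells (4.53-fold, adjusted p = 8.75e-07). Of the 10 genes, these 2 were the ones called on opposite sides of control with the 2 stimuli in both genotypes. Aco1 fell by 0.82 ± 0.12 in KO cells (adjusted p = 3.42e-04) and by 0.76 ± 0.12 in WT cells (adjusted p = 5.02e-04). Slc40a1 and Ireb2 did not pass in either genotype. Ftl1 passed in both, and its WT call was lost without any 1 of its 4 libraries (adjusted p from 0.0568 to 0.186), and its KO call without KO IL-4 library 2 (0.0706).

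In the comparison of KO with WT, none of the 10 genes passed in edgeR or in DESeq2 in any treatment. Before adjustment, p lay below 0.05 for 1 of the 10 after LPS+IFNγ (Ireb2), 0 after IL-4 and 0 in control cells, and for 8.27%, 3.35% and 7.48% of all genes tested in the same order. The shares of all genes that passed after adjustment were 0.0591% after LPS+IFNγ, 0.0665% after IL-4 and 0.0739% in control cells. Ireb2 stood at 83.7 and 73.9 CPM in KO and 92.8 and 96.8 CPM in WT LPS+IFNγ libraries, a log2 fold change of -0.27 ± 0.09 (adjusted p = 0.574). Averaged over the 3 treatments it was -0.14 ± 0.05 (unadjusted p = 0.0311, adjusted p = 0.417), where 11.3% of all genes had an unadjusted p below 0.05. After adjustment no gene of the 10 passed there, and 0.170% of all genes did. Fth1 averaged 0.23 ± 0.11 (adjusted p = 0.460) and Slc40a1 -0.37 ± 0.28 (adjusted p = 0.608).

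Slc40a1 and Lcn2 had the widest errors between genotypes, and a single KO library decided the value of Slc40a1 after LPS+IFNγ and that of Lcn2 in control cells. Slc40a1 after LPS+IFNγ had a KO over WT log2 fold change of -0.66 ± 0.49 (adjusted p = 0.728), with 91.9 and 21.3 CPM in KO libraries against 78.3 and 102 in WT libraries. It was -2.08 (adjusted p = 0.00748) without KO LPS+IFNγ library 1 and 0.04 (adjusted p = 1) without KO LPS+IFNγ library 2. The mean over treatments was -0.84 (adjusted p = 0.0195) without KO LPS+IFNγ library 1. Lcn2 in control cells had a log2 fold change of 1.90 ± 1.15 (adjusted p = 0.726), which was -1.66 without KO control library 1. After LPS+IFNγ, Lcn2 was higher in both KO libraries than in both WT libraries, by 0.88 ± 0.76 on the log2 scale (adjusted p = 0.764). Markers of stromal and endothelial cells summed to 383 to 909 CPM in KO and 109 to 282 CPM in WT LPS+IFNγ libraries, 427 to 1565 in KO and 77.5 to 293 in WT IL-4 libraries, and 430 to 1067 in KO and 85.0 to 435 in WT control libraries. These sums were higher in library 2 than in library 1 in all 6 groups, and their part in the differences between genotypes or between libraries was not tested.

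**Figure D4:**
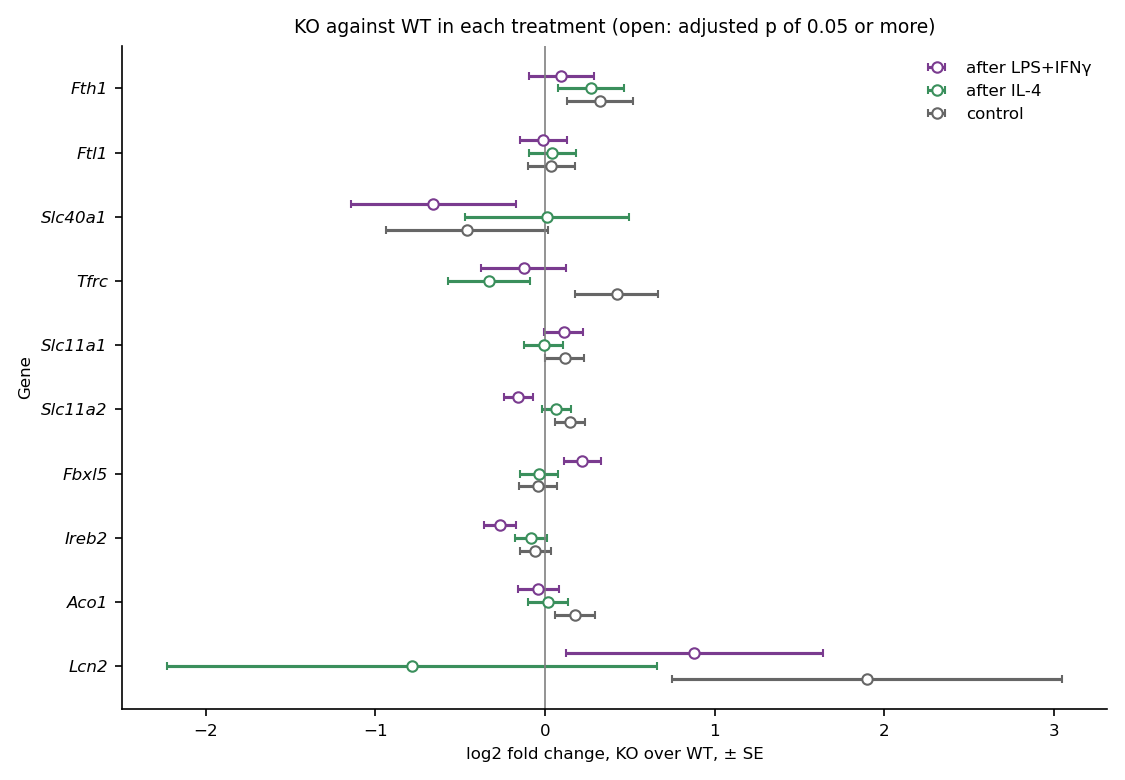
Log2 fold change ± SE of KO over WT for each iron gene after LPS+IFNγ, after IL-4 and in control cells. All points are open, since no adjusted p was below 0.05; Lcn2 and Slc40a1 have the widest errors, and Ireb2 after LPS+IFNγ (-0.27 ± 0.09) has the lowest unadjusted p.

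The response to each stimulus was also compared between genotypes, by the interaction in the same fit. None of the 10 genes passed for LPS+IFNγ or IL-4 in edgeR or in DESeq2. Before adjustment, p lay below 0.05 for 1 of the 10 with LPS+IFNγ (Slc11a2) and for 0 with IL-4, against 3.52% and 4.47% of all genes tested. Over all genes tested, edgeR called 0 in both interactions, DESeq2 called 6 in each, and 476 genes with LPS+IFNγ and 604 with IL-4 had a p below 0.05 before adjustment. The LPS+IFNγ response of Slc11a2 was smaller in KO than in WT by 0.30 ± 0.12 on the log2 scale (KO minus WT -0.30, unadjusted p = 0.0335, adjusted p = 0.991). The Tfrc response was -0.55 ± 0.35 for LPS+IFNγ (adjusted p = 0.991) and -0.75 ± 0.34 for IL-4 (unadjusted p = 0.0540, adjusted p = 0.9999), again KO minus WT. In the control libraries these responses share, Tfrc stood at 185 and 215 CPM in KO and 142 and 157 CPM in WT.

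A wider list of 60 other iron and heme genes, also chosen with earlier results of these data known, was examined beside the 10. Of the 60, 47 passed the filter. With LPS+IFNγ, 12 rose and 18 fell in KO cells, beside 27.2% of all genes higher and 26.1% lower. In WT cells 12 rose and 21 fell, beside 27.4% of all genes higher and 27.0% lower. With library totals in place of TMM factors the split was 9 higher and 30 lower in KO cells and 9 higher and 27 lower in WT cells, and no gene called with TMM changed direction against control. The median log2 fold change was -0.22 in KO cells and -0.21 in WT cells, beside -0.01 and -0.05 over all genes. With IL-4, 3 rose and 1 fell in KO cells, and 4 rose and 1 fell in WT cells, near the 6.86% and 9.04% of all genes that passed in those comparisons. KO against WT gave 0 in edgeR and 0 in DESeq2 in each treatment; before adjustment p lay below 0.05 for 5 of the 47 after LPS+IFNγ (8.27% of all genes), 0 after IL-4 (3.35%) and 2 in control cells (7.48%).

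With LPS+IFNγ, 53.3% of all genes passed in KO cells and 54.3% in WT cells. Of the 7 uptake genes tested, 2 rose and 5 fell in KO cells and 2 rose and 4 fell in WT cells. Those that rose in both were Slc39a14, a metal importer, and Slc48a1, a heme transporter; those that fell in both were Trf, Steap3, Slc39a8 and Cd163, and Lrp1 fell in KO cells. Cd163, Cp, Spic, Hmox1, Epas1 and Slc39a8 are given in full because their called changes were the largest of the list, and its other genes were also named after their values were seen. Cd163, the haptoglobin-hemoglobin scavenger receptor, had 1 and 0 counts in KO and 1 and 1 counts in WT LPS+IFNγ libraries, against 89 and 33 counts in KO and 57 and 57 counts in WT control libraries. Slc39a8, the ZIP8 metal importer, stood at 2.77 and 4.26 CPM in KO and 1.36 and 2.51 CPM in WT LPS+IFNγ libraries, 7.71 and 9.75 in KO and 6.36 and 7.91 in WT IL-4, and 17.3 and 19.0 in KO and 14.4 and 14.8 in WT control. With LPS+IFNγ it fell by 2.38 ± 0.29 on the log2 scale in KO cells (adjusted p = 1.02e-04) and fell by 2.91 ± 0.30 in WT cells. With IL-4 it fell by 1.05 ± 0.26 in KO cells (adjusted p = 0.0457) and by 1.03 ± 0.27 in WT cells (adjusted p = 0.0428), and both calls were lost without any 1 of their libraries. Trf, the gene of transferrin, and Steap3, the endosomal ferrireductase, moved in the directions of Tfrc. The log2 fold change of Trf was -1.40 in KO and -1.13 in WT cells with LPS+IFNγ, and 0.67 in KO and 0.84 in WT cells with IL-4. That of Steap3 was -2.60 in KO and -2.33 in WT cells with LPS+IFNγ, and 0.56 in KO and 0.70 in WT cells with IL-4.

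Of the 7 genes of export and its control, 1 rose with LPS+IFNγ in each genotype, 2 fell in KO cells (Hfe and Neo1) and 3 fell in WT cells (the same 2 and Abcg2). These counts were near the 53.3% of all genes that passed in KO cells and the 54.3% in WT cells. The gene that rose was Cp, ceruloplasmin, the ferroxidase that works with ferroportin. Cp stood at 370 and 405 CPM in KO and 262 and 256 CPM in WT LPS+IFNγ libraries, against 11.1 and 5.17 CPM in KO and 4.52 and 6.01 CPM in WT control. It rose by 5.57 ± 0.54 on the log2 scale in KO cells and by 5.62 ± 0.55 in WT cells, and the KO value was 6.22 without KO control library 1.

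Of the 4 storage and chaperone genes, Ncoa4, the receptor for ferritin breakdown by autophagy, fell in both genotypes, by 0.57 in KO and 0.93 in WT cells on the log2 scale, and Pcbp1 and Pcbp2, which deliver iron to ferritin, fell in WT cells. That made 1 of the 4 in KO cells and 3 of the 4 in WT cells, beside 53.3% and 54.3% of all genes. Of the 9 genes of mitochondrial iron, 2 rose and 3 fell in each genotype, a share near the 53.3% of all genes in KO cells and 54.3% in WT cells. Slc25a37, mitoferrin 1, rose by 2.00 in KO and 1.32 in WT cells, with Slc25a28 in KO cells and Iscu in WT cells, and Abcb10 was among those that fell in both.

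Of all genes tested, 53.3% passed with LPS+IFNγ in KO cells and 54.3% in WT cells. Of the 12 genes of heme synthesis and breakdown, 5 rose and 6 fell with LPS+IFNγ in each genotype. Those that rose were Alas1, Uros, Hmox1, Hmox2 and Blvrb in both. Hmox1, heme oxygenase 1, which frees iron from heme, stood at 6769 and 4793 CPM in KO and 6310 and 6238 CPM in WT LPS+IFNγ libraries, against 405 and 700 CPM in KO and 368 and 370 CPM in WT control. It rose by 3.39 ± 0.29 on the log2 scale in KO cells and by 4.09 ± 0.30 in WT cells. With IL-4, Alas1, which encodes the first enzyme of heme synthesis, rose by 1.32 in KO and 1.53 in WT cells, and Blvra, a biliverdin reductase, rose by 0.49 in WT cells. Whether the IL-4 changes of Alas1, Blvra, Trf and Steap3 held with a library left out was not examined.

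Of the 8 sensing and control genes, 2 rose and 1 fell in KO cells and 2 rose and 2 fell in WT cells with LPS+IFNγ, a share at or below that of all genes. The falls were in Epas1 in both genotypes and Nfe2l2 in WT cells. Spic, the transcription factor of red-pulp macrophages, stood at 44.3 and 22.6 CPM in KO and 41.0 and 41.2 CPM in WT LPS+IFNγ libraries, against 1.47 and 0.292 CPM in KO and 1.94 and 1.63 CPM in WT control. It rose by 5.22 ± 0.66 on the log2 scale in KO cells and by 4.52 ± 0.62 in WT cells, and the KO value was 6.81 without KO control library 1 and 4.50 without KO control library 2. Epas1, which encodes HIF-2α and was higher in library 2 in all 6 groups, stood at 3.38 and 4.94 CPM in KO and 0.749 and 2.71 CPM in WT LPS+IFNγ libraries, against 27.8 and 97.2 CPM in KO and 22.0 and 36.7 CPM in WT control. It fell by 3.93 ± 0.74 in KO cells and by 4.08 ± 0.79 in WT cells. Its values ran from -4.57 to -2.76 in KO cells when a control library was left out and from -5.28 to -3.44 in WT cells when an LPS+IFNγ library was left out. Hif1a, the paralog of Epas1, was the other gene that rose in this group, by 2.72 in KO and 2.42 in WT cells.

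**Figure D5:**
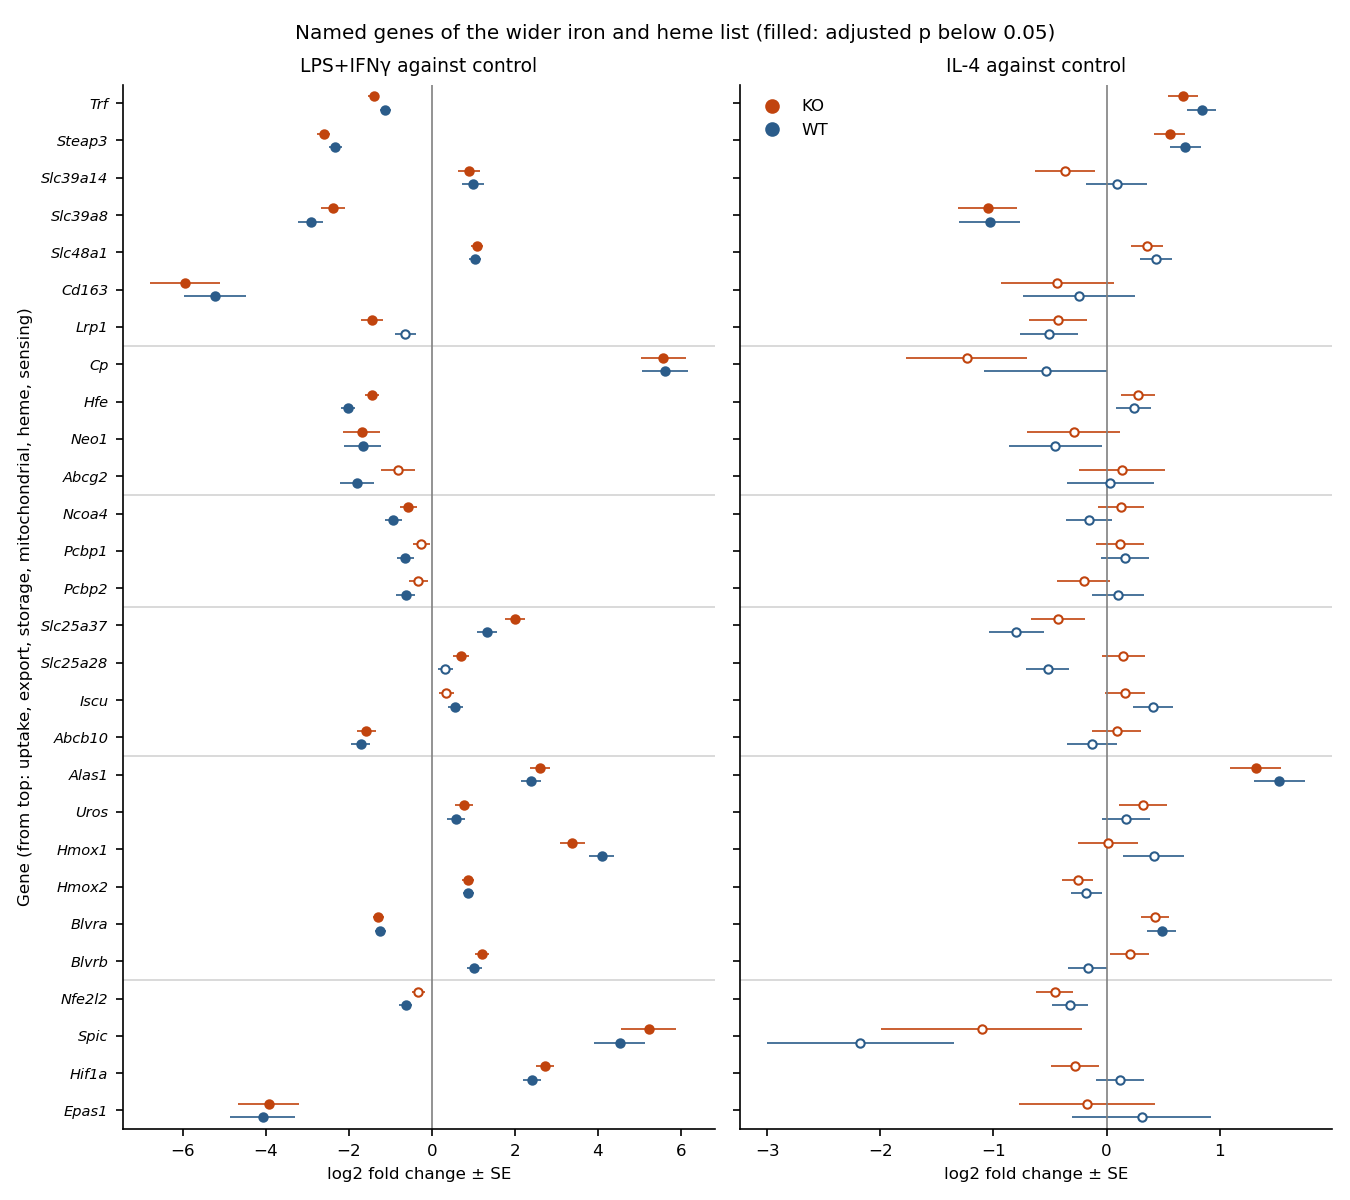
Log2 fold change ± SE of the 28 genes of the wider iron and heme list named in the text, for LPS+IFNγ (left) and IL-4 (right) against control, in KO (upper point of each pair) and WT cells, grouped by role; filled points have an adjusted p below 0.05 and the x axes differ. With LPS+IFNγ, 12 of the filled points are higher and 11 lower in KO cells, and 12 higher and 14 lower in WT cells. The genes shown were named after their values were seen and leave out some that fell. Of all 47 tested, 12 rose and 18 fell in KO cells, and 12 rose and 21 fell in WT cells. The value of Cd163 with LPS+IFNγ rests on 0 or 1 counts and depends on the prior count of the fit.

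The genes most like 3 of the iron genes were sought by Pearson's r of log2 CPM over the 12 libraries among 13330 tested genes with a symbol. The 12 points share the stimulus and form clusters by treatment, so r is a description. For Slc40a1 the highest were Susd1 (0.961), Phka1 (0.954) and Fgd2 (0.952). For Tfrc they were Abhd14a (0.993), Stt3b (0.992) and Trf (0.992). For Lcn2 they were Slpi, Pde7b and Gm12250 (0.994 each). An r above 0.95 was reached by 4 genes for Slc40a1, 232 for Tfrc and 949 for Lcn2.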

How the data were processed

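RNA sequencing of the 12 libraries gave a table of estimated counts per gene, deposited by the authors as whole numbers. Per the submitters' processing notes, Salmon 1.10.2, FastQC 0.11.9, R 4.4.1, DESeq2 1.45.3 and build GRCm39 were named, with no role for each; which annotation was used and whether counting was stranded is not given in the sources used here. Libraries were made with a directional kit, per the labels' protocols. Overlapping and antisense genes are therefore uncertain.

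The rest was computed here. Symbols and GRCm38 positions came from GENCODE release M21, which matched 51425 of 55891 identifiers; no sample column was left unassigned. Genes were filtered with filterByExpr and scaled with TMM factors (0.756 to 0.833 in LPS+IFNγ libraries, 1.09 to 1.16 in the others). In R 4.3.3, edgeR 4.0.16 fitted its quasi-likelihood model to the 12 libraries with a mean for each group (6 residual degrees of freedom). Two-sided tests of 12 contrasts had Benjamini-Hochberg adjustment over 13525 genes, with a threshold of 0.05. CPM values are TMM-scaled. SE was derived from the F statistic. Log2 CPM for likeness used a prior count of 2. A test on simulated data preceded the fit.

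Groups came from the sample titles. The alternatives were DESeq2 1.42.0, its size factors in edgeR, no low-count filter, the library number as a block, only the libraries compared, each library left out, ferritin pseudogenes summed with their gene, and, chosen after seeing the data, library totals without TMM. The members and lists were chosen with earlier results of these data known. All 10 members are named. Of the wider list, the plan was to name the 6 genes with the largest called change with a stimulus. The others of the 28 named were added after their values were seen. The 3 genes most correlated with each of Slc40a1, Tfrc and Lcn2 are also named. Marker lists covered macrophages, granulocytes, erythroid, stromal and endothelial, B, and T and NK cells, the cell cycle and interferon-stimulated genes; B cell markers summed to at most 4.98 CPM and T and NK cell markers to at most 1.51 CPM. Single values of a few listed genes are not reported here.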

Additional observations from a re-analysis of the deposited data

How the results depend on the processing

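The 41 calls of the 10 genes were each checked under the alternative fits, which gave 418 pairs of a call and a fit. The pairs are not independent, since a fit served many calls. Of the 418 pairs, 369 kept direction and call, 48 kept direction and lost the call (35 of them with a library left out), and 1 reversed. That 1, Ireb2 with LPS+IFNγ in WT cells, was -0.14 with library totals in place of TMM, and the uncalled KO value was -0.34; the cause was not tested beyond the shift of all genes. Another 2 uncalled values reversed with a library left out: Lcn2, KO against WT in control (-1.66 to 2.85), and Slc40a1, KO against WT after LPS+IFNγ (-2.08 to 0.036). With a library left out, the iron genes called with LPS+IFNγ in WT cells numbered 6 to 7, with IL-4 1 to 3 in KO and 1 in WT cells, and 0 to 1 for KO against WT after LPS+IFNγ and for the mean over treatments. With IL-4 in KO cells, 4 were called with no low-count filter and 0 with only the libraries compared, which leaves 2 residual degrees of freedom.

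Counts over all genes moved more. With IL-4 in KO cells they were 1681 (DESeq2), 1620 (no filter), 8 (only the libraries compared) and 303 to 1040 with a library left out; in WT cells 1909 (DESeq2), 3475 (only the libraries compared) and 175 to 281. For KO against WT they were, in control, 71 (DESeq2), 107 (no filter), 4 (only the libraries compared) and 8 to 49; after LPS+IFNγ, 34, 81 (no filter) and 7 to 504; after IL-4, 19, 33 (no filter), 5 (only the libraries compared) and 8 to 20; for the mean, 97, 312 (no filter) and 15 to 130. The LPS+IFNγ interaction gave 6, 8 and 0 to 27, and the IL-4 interaction 6, 23 and 0 to 12. 

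Deviations of same-numbered libraries correlated above 0.1 in 14 of 15 pairs of groups (0.046 to 0.337), a hint from the data, not the design, that library numbers pair samples; pairing was not assumed, since 1 pair fell short and the labels give no shared source. With the replicate block, the KO against WT counts were 21 genes after LPS+IFNγ, 36 with IL-4, 27 without a stimulus and 173 for the mean; of the iron genes, Slc40a1 with IL-4 in KO cells passed (adjusted p = 0.0380) and Aco1 with LPS+IFNγ in WT cells did not (0.0573). Summing ferritin pseudogenes changed no call. Depth limits the Lcn2 and Cd163 folds, which rest on few counts.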
